A study of Mus musculus with 6 samples.

Results

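The nuclear genes of complex III, cytochrome c, complex IV and ATP synthase were examined in the gastrocnemius (GAS) muscle of Kvβ2 knockout (KO) and wildtype (WT) mice. Members were the genes whose symbols begin with *Uqcr*, with *Cox* and a digit from 4 to 8, or with *Atp5*, together with *Cyc1* and *Cycs*, without pseudogenes marked "-ps". This gave 47 of the 37979 genes in the deposited table. By role, 9 encode subunits of complex III, 1 encodes cytochrome c, 17 encode subunits or tissue isoforms of complex IV and 15 encode subunits of ATP synthase. The other 5 were kept apart. *Cox7a2l* encodes a factor that joins complexes III and IV into supercomplexes, and *Atp5s* and *Atp5sl* were named after ATP synthase but are not part of its core. *Atp5l2* resembles the subunit gene *Atp5l* and is named as a pseudogene in GENCODE, kept here because its symbol in the table has no such mark, and *Cox4nb*, also called *Emc8*, encodes a subunit of an endoplasmic reticulum membrane complex beside *Cox4i1*.

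RNA came from the GAS muscle of 3 WT and 3 KO male mice, 20 weeks of age and untreated, with 1 library per mouse, numbered 1, 7 and 8 in each genotype. KO mice carry null alleles of *Kcnab2*, the gene of the potassium channel subunit Kvβ2, in every tissue, and both genotypes came from crosses of mice with 1 null allele. RNA-seq gave FPKM, which counts fragments against transcript length and library depth. Levels can thus be compared between genes only roughly, since the values also moved with GC content between libraries, as given below. A log2 fold change here is the KO mean minus the WT mean of log2(FPKM + 0.1), which understates the change of low genes, with its standard error (SE) and the p of limma after Benjamini-Hochberg adjustment over the 12334 genes whose mean reached 0.5 FPKM. Values in the separate libraries are given in the order of replicates 1, 7 and 8.

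Complex III passes electrons from ubiquinol to cytochrome c, and complex IV passes them on to oxygen. Both pump protons out of the mitochondrial matrix, and ATP synthase uses their return to make ATP. A few subunits of each complex are encoded by mitochondrial DNA and the others by nuclear genes. Several nuclear subunits of complex IV exist as isoforms. COX6A2, COX7A1 and COX8B are found mainly in skeletal muscle and heart, and COX6A1, COX7A2 and COX8A mainly in other tissues. COX4I2 is best known from lung. The c subunit that forms the rotating ring of ATP synthase is encoded by 3 genes whose mature proteins are the same.

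The targeted gene *Kcnab2* (ENSMUSG00000028931, chromosome 4, 152390742 to 152477871, minus strand, GRCm38) had 0.2325, 0.1 and 0.1098 FPKM in the 3 WT libraries. Among the KO libraries, replicates 1 and 8 list it at 0 and replicate 7 had 0.0151 FPKM. The KO values were thus all the lower ones (p = 0.1 in a two-sided exact permutation test, which is the smallest p that 3 against 3 allows), and even the WT level was under the filter. By the steps of the low FPKM values, WT libraries held about 19860000 to 20600000 fragments and KO libraries 15460000 to 19160000. Skeletal muscle markers summed to 49380.2 to 73384.3 FPKM in WT and to 66396.2 to 79420.3 FPKM in KO libraries, with *Myh4*, *Atp2a1* and *Tnnt3*, 3 of the 13 markers, listed at 0 everywhere. Slow fiber markers stood apart in WT replicate 8, where *Myh7*, the slow myosin heavy chain, was at 0.05135 FPKM against 24.33 and 22.13 FPKM in WT replicates 1 and 7. In this bulk tissue, fewer cells of a type and less RNA per cell cannot be told apart.

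Of the 47 genes, 45 passed the filter on low FPKM. The other two, the testis isoform genes *Cox7b2* and *Cox8c*, were listed at 0 in all 6 libraries. The subunits were among the abundant transcripts of the muscle: the 47 genes together took 3.85% to 5.05% of all FPKM in the WT libraries and 3.57% to 4.61% in the KO libraries. These are shares of the listed FPKM, in which *Myh4*, *Atp2a1*, *Tnnt3* and 6 mitochondrially encoded subunit genes are at 0 everywhere. The summed level of the 47 genes was 19326, 16662 and 16489 FPKM in WT replicates 1, 7 and 8 and 16748, 19882 and 19387 FPKM in KO replicates 1, 7 and 8. WT replicate 1 was high and KO replicate 1 low, so the genotypes overlapped in the sum. They also overlapped within each complex, with 2876 to 3356 FPKM in WT and 2913 to 3518 FPKM in KO libraries for complex III, 5061 to 5917 and 5570 to 6758 FPKM for complex IV, and 8083 to 9738 and 7995 to 9310 FPKM for ATP synthase.

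No member passed the test between the genotypes. At an adjusted p under 0.05 in limma, 0 of the 45 genes were higher and 0 were lower in KO muscle, where 0.251% of all tested genes were higher and 0.073% lower (0.324% in either direction). At an unadjusted p under 0.05, 13 of 45 (28.9%) were higher and 2 of 45 (4.44%) were lower, beside 15.3% and 10.9% of all tested genes. The same share of the genes, 13 of 45, had every KO library above every WT library, and 3 of 45 had every KO library below, beside 18.3% and 16.2% of all tested genes. The median log2 fold change was 0.098 over the 45 genes and 0.010 over all tested genes. By complex it was 0.251 for complex III, 0.143 for complex IV and 0.025 for ATP synthase. These medians moved with single libraries. With each left out in turn, the 45 genes ran from 0.053 without WT replicate 7 to 0.158 without KO replicate 1, complex III from 0.081 without KO replicate 7 to 0.378 without WT replicate 1, complex IV from 0.071 without WT replicate 7 to 0.273 without WT replicate 1, and ATP synthase from -0.045 without WT replicate 8 to 0.125 without WT replicate 1. The smallest adjusted p of any member was 0.0667, so each difference below is given as a value that missed the threshold. With limma's array weights, 14 members were called higher and 1 lower, beside 15.1% and 10.4% of all tested genes, and with every other setting tried 0 were called.

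**Figure D1:**
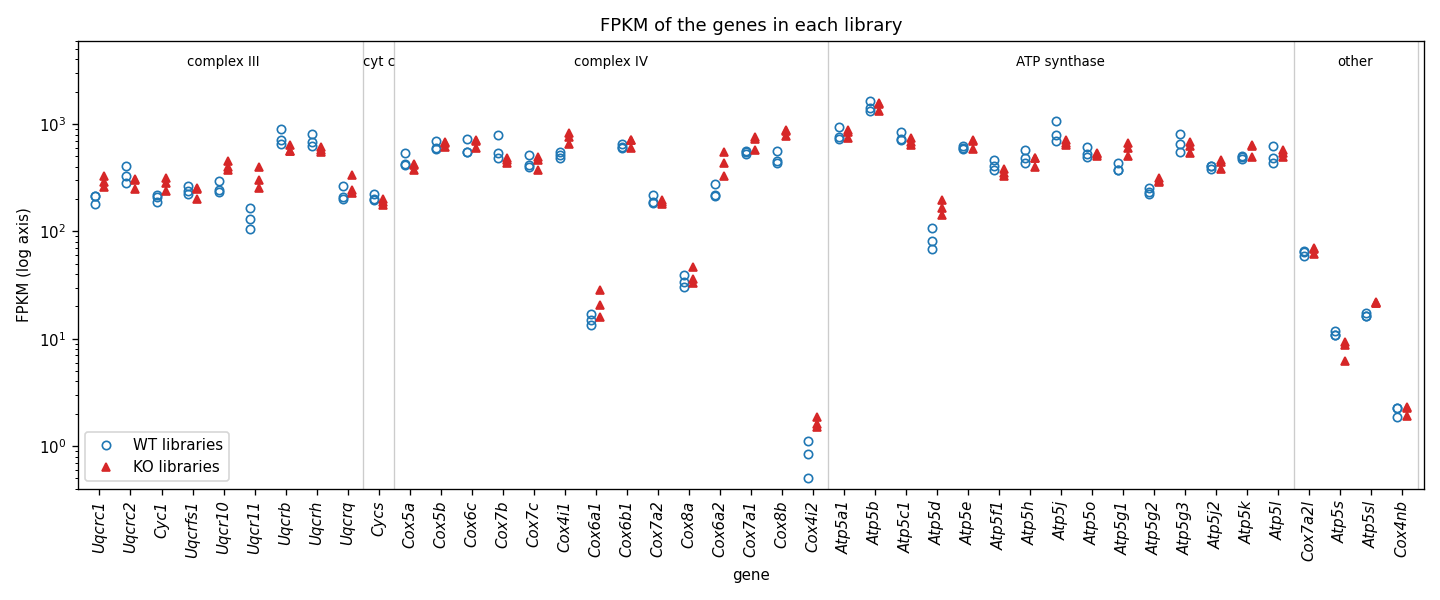
FPKM (log axis) of the 43 tested genes that were above 0 in every library, by complex, with 1 open circle for each WT library and 1 filled triangle for each KO library. Most genes overlap between the genotypes, while Uqcr11, Uqcr10, Cox8b, Cox6a2 and Atp5d have every KO library above every WT library.

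The direction of the differences went with the base composition of the transcripts. Across the 45 genes, the log2 fold change correlated with GC content (Pearson's r = 0.64, Spearman's rho = 0.76), as it did across 11985 tested genes of known GC content (r = 0.43, rho = 0.70), and these genes share their libraries and are not independent. Of the 14 genes with 55% GC or more, 14 had a positive log2 fold change, with a median of 0.50 beside 0.47 for all tested genes of that composition. Of the 8 genes under 45% GC, 7 had a negative log2 fold change, with a median of -0.20 beside -0.30. Between 45% and 50%, 9 of 13 were negative, with a median of -0.10 beside -0.11, and between 50% and 55%, 9 of 10 were positive, with a median of 0.12 beside 0.14. In each class the members thus stood close to all tested genes of that composition.

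The same order ran through single libraries. In WT replicates 1, 7 and 8 the rank correlation over the members between GC content and a gene's log2 deviation from its mean over the 6 libraries was -0.76, -0.65 and -0.31, and in KO replicates 1, 7 and 8 it was 0.64, 0.74 and 0.62. The WT libraries therefore differed among themselves along the axis that separated the genotypes, with replicate 1 at one end and replicate 8 nearest to the KO libraries. After a loess curve on GC content was subtracted from each library, the median log2 fold change was 0.018 for the 45 genes, 0.018 for complex III, 0.069 for complex IV and -0.002 for ATP synthase. At an unadjusted p under 0.05, 7 of 45 (15.6%) were then higher and 1 of 45 (2.22%) lower, beside 5.37% and 5.43% of all genes corrected. The 7 were *Uqcr11*, *Atp5g1*, *Uqcr10*, *Cox8b*, *Cox6a2*, *Atp5d* and *Atp5l*, with corrected log2 fold changes from 0.38 to 0.70, and the gene lower was *Cox8a*, at -0.42. What makes GC content move with the genotype was not tested, and corrected values are given beside the genes below.

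**Figure D2:**
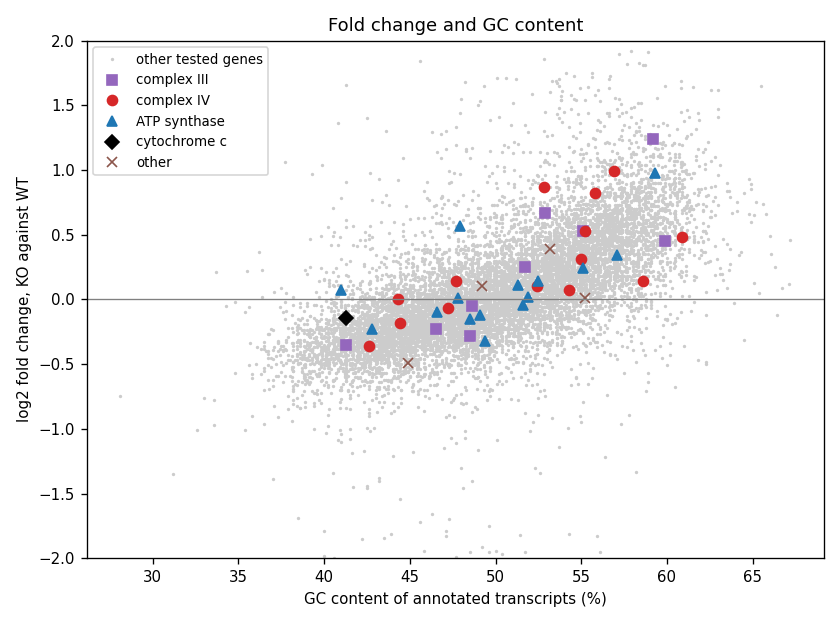
Log2 fold change of KO against WT (y axis) against the GC content of the annotated transcripts in percent (x axis), with all tested genes in grey and the members above 0 in every library as coloured symbols by complex. Genes beyond 2 on the y axis are not drawn. Members at 55% GC or more all lie above 0 and 7 of 8 members under 45% lie below it, as the grey cloud does.

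Complex III was split between higher and lower subunits, 5 with a positive and 4 with a negative log2 fold change. The small supernumerary subunits, which surround the catalytic core, stood at both ends. *Uqcr11* (ENSMUSG00000020163, chromosome 10, 80402997 to 80406830, minus strand) was at 105.4, 130.8 and 164.6 FPKM (WT) and 255.1, 395.5 and 298.8 FPKM (KO). Every KO library lay above every WT library, with KO replicate 7 highest and WT replicate 1 lowest. Means were 134 ± 29.7 FPKM in WT and 316 ± 71.9 FPKM in KO muscle (SD, n = 3 each). The log2 fold change of *Uqcr11* was 1.24 (SE 0.21, limma adjusted p = 0.0667), or 1.07 to 1.41 with each library left out in turn, and 0.65 after the GC correction.

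*Uqcr10* (chromosome 11, 4701973 to 4704342, minus strand), a small subunit beside cytochrome c1, was at 232.7, 241.3 and 296.2 FPKM (WT) and 374.1, 449.4 and 397.8 FPKM (KO). The groups were apart, with WT replicate 8 the nearest to the KO libraries. Its log2 fold change was 0.67 (SE 0.13, limma adjusted p = 0.0700), and 0.49 after the GC correction. *Uqcrb* and *Uqcrh*, a subunit added early in assembly and the hinge protein that contacts cytochrome c1, went the other way. *Uqcrb*, the most abundant member of complex III, was at 896.7, 711.1 and 650.5 FPKM (WT) and 556.4, 563.7 and 639.6 FPKM (KO). All KO libraries were below all WT libraries, though WT replicate 8 and KO replicate 8 were close. This gave a log2 fold change of -0.35 (SE 0.15, limma adjusted p = 0.183), and -0.02 after the GC correction. *Uqcrh* was at 816.7, 675.7 and 627.6 FPKM (WT) and 548.5, 577.9 and 614.4 FPKM (KO), also without overlap, with a log2 fold change of -0.28 (SE 0.13, limma adjusted p = 0.220) and -0.20 after the correction. *Uqcrq*, which binds next to cytochrome b, overlapped between the genotypes (0.25, adjusted p = 0.406).

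The core and catalytic subunits of complex III were as divided. *Uqcrc1*, the first core protein, was at 178.7, 213.6 and 213.8 FPKM (WT) and 260.1, 326.0 and 289.0 FPKM (KO). Its partner *Uqcrc2* was at 405.2, 325.1 and 283.2 FPKM (WT) and 248.1, 301.3 and 306.9 FPKM (KO). *Uqcrc1* was thus apart between the genotypes, with a log2 fold change of 0.53 (SE 0.13, limma adjusted p = 0.0800), and *Uqcrc2* overlapped, with -0.23 (SE 0.16, adjusted p = 0.381). The 2 core transcripts have 55.1% and 46.5% GC, and their corrected log2 fold changes were 0.20 and -0.10. *Cyc1*, cytochrome c1, was at 187.1, 208.3 and 216.4 FPKM (WT) and 240.7, 313.2 and 282.9 FPKM (KO), and all KO libraries were higher. Its log2 fold change of 0.45 (SE 0.13, limma adjusted p = 0.101) became -0.18 after the GC correction. *Uqcrfs1*, the Rieske iron-sulfur protein, differed little (-0.05, adjusted p = 0.818). The mobile carrier *Cycs*, cytochrome c, was at 224.4, 196.1 and 202.6 FPKM (WT) and 175.8, 200.7 and 189.5 FPKM (KO). These overlapped, with a log2 fold change of -0.14 (SE 0.11, adjusted p = 0.435) that became 0.19 after the correction.

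**Figure D3:**
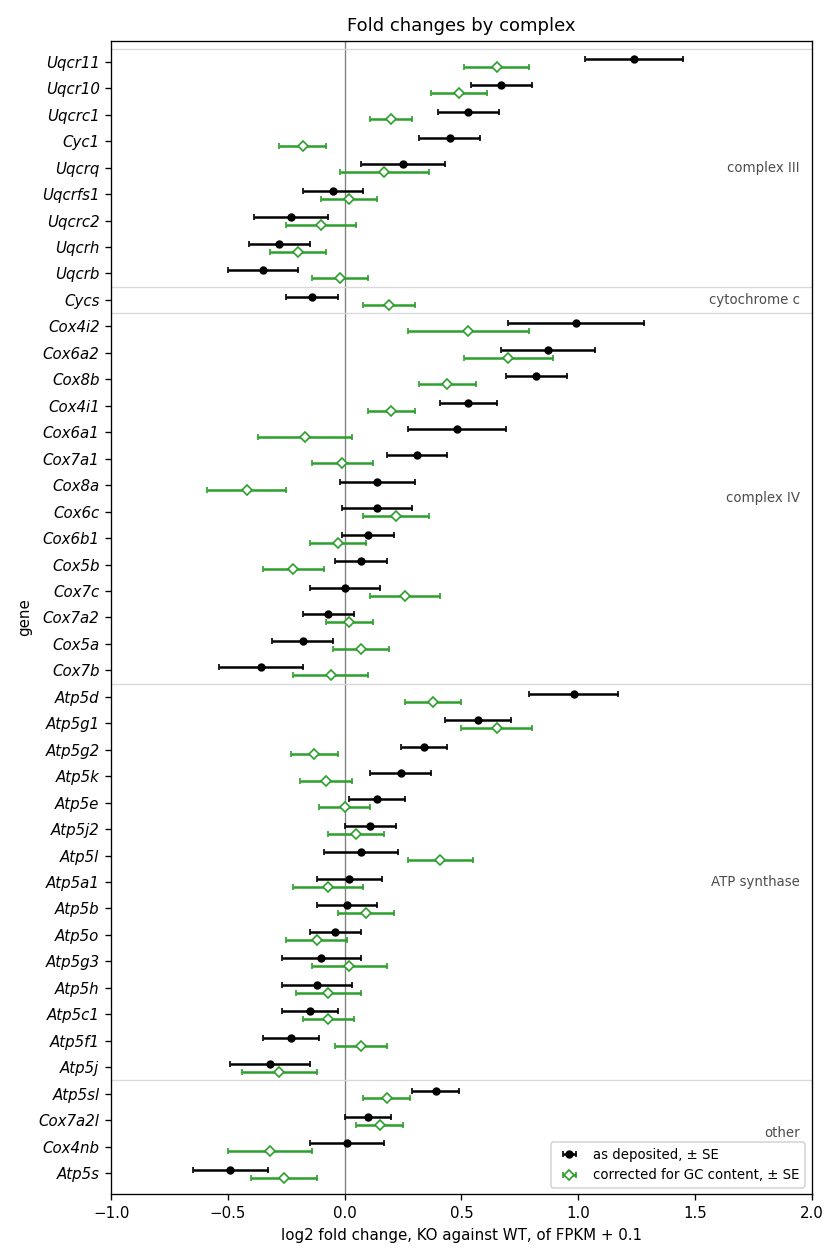
Log2 fold change of KO against WT, with SE, of the 43 tested members above 0 in every library, by complex, as deposited (black) and after the GC correction (green). The largest black values, 1.24 for Uqcr11, 0.99 for Cox4i2, 0.98 for Atp5d, 0.87 for Cox6a2 and 0.82 for Cox8b, stay above 0 in green, at 0.65, 0.53, 0.38, 0.70 and 0.44, while Cyc1, Cox6a1, Cox8a and Atp5g2 are among those that change sides.

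The 3 muscle isoform genes of complex IV had every KO library above every WT library, with a median log2 fold change of 0.815 (0.444 after the GC correction). The 5 ubiquitous isoform genes had a median of 0.143 (-0.027 corrected), and 1 of these 5, *Cox4i1*, was without overlap. *Cox8b* (ENSMUSG00000025488, chromosome 7, 140898945 to 140900446, minus strand), the muscle form of a small membrane subunit, was at 451.2, 430.2 and 556.3 FPKM in the 3 WT libraries. Among the KO libraries it was at 778.0, 884.9 and 855.1 FPKM. Means were 479 ± 67.6 FPKM and 839 ± 55.2 FPKM (SD, n = 3 each), and the gap between the groups was wider than the spread within either. *Cox8b* had the smallest p of all members, with a log2 fold change of 0.82 (SE 0.13, limma adjusted p = 0.0667) and 0.74 to 0.93 with each library left out, and 0.44 after the GC correction. Its ubiquitous partner *Cox8a* was at 39.64, 30.32 and 33.79 FPKM (WT) and 33.18, 46.17 and 35.73 FPKM (KO), and the genotypes overlapped (0.14, SE 0.16, adjusted p = 0.595).

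*Cox6a2* (ENSMUSG00000030785, chromosome 7, 128205435 to 128206387, minus strand), the muscle form of a subunit through which nucleotides regulate the enzyme, was at 217.5, 214.8 and 275.1 FPKM in the WT libraries. In the KO libraries it was at 326.3, 548.9 and 434.5 FPKM, all higher, with replicate 7 far above replicate 1. The log2 fold change was 0.87 (SE 0.20, limma adjusted p = 0.0760), with 0.68 to 1.06 when each library was left out and 0.70 after the GC correction. *Cox6a1*, the other form, was at 16.96, 13.52 and 14.86 FPKM (WT) and 15.80, 28.44 and 20.78 FPKM (KO). KO replicate 1 lay within the WT range, and the log2 fold change of 0.48 (SE 0.21, adjusted p = 0.200) became -0.17 after the correction.

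*Cox7a1* (chromosome 7, 30184144 to 30186078, plus strand), the muscle form of a subunit linked to dimer formation, was at 565.3, 530.3 and 555.5 FPKM (WT) and 577.3, 758.6 and 719.7 FPKM (KO). KO replicate 1 was barely above the highest WT library, and the other two were well above it. This gave a log2 fold change of 0.31 (SE 0.13, limma adjusted p = 0.188), and -0.01 after the GC correction. *Cox7a2* was at 220.0, 189.3 and 184.3 FPKM (WT) and 180.0, 187.9 and 194.8 FPKM (KO), which overlapped (-0.07, SE 0.11, adjusted p = 0.695).

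In levels per length, the muscle form dominated each pair. It made up 91.9% to 96.0% of *Cox8b* plus *Cox8a*, 92.8% to 95.4% of *Cox6a2* plus *Cox6a1* and 72.0% to 80.1% of *Cox7a1* plus *Cox7a2*. The log2 ratio of *Cox8b* to *Cox8a* within a library was 3.51, 3.82 and 4.04 in WT replicates 1, 7 and 8 and 4.55, 4.26 and 4.58 in KO replicates 1, 7 and 8. For *Cox6a2* to *Cox6a1* it was 3.67, 3.98 and 4.20 in the WT and 4.36, 4.27 and 4.38 in the KO libraries. The ratio of *Cox7a1* to *Cox7a2* was 1.36, 1.49 and 1.59 against 1.68, 2.01 and 1.88. In all of these pairs the KO libraries were above the WT libraries without overlap, and in each pair WT replicate 8 was the WT library nearest to the KO libraries. The mean ratio was higher in KO by 0.67 for *Cox8*, 0.38 for *Cox6a* and 0.38 for *Cox7a* (p = 0.1 for each in a two-sided exact permutation test, and 0.133 adjusted over the 4 pairs compared). After the GC correction the differences were 0.87, 0.86 and -0.03, so the difference of the *Cox7a* pair did not remain. Of the 10 skeletal muscle markers tested, 4 (*Acta1*, *Ckm*, *Des* and *Myh2*) also had every KO library above every WT library, beside 18.3% of all tested genes. The other 6 overlapped, and 2 of them, *Mylpf* (-0.05) and *Pvalb* (-0.15), had negative log2 fold changes. The median log2 fold change of the 10 markers was 0.427, or 0.107 after the GC correction. Their part in the isoform values was not tested.

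**Figure D4:**
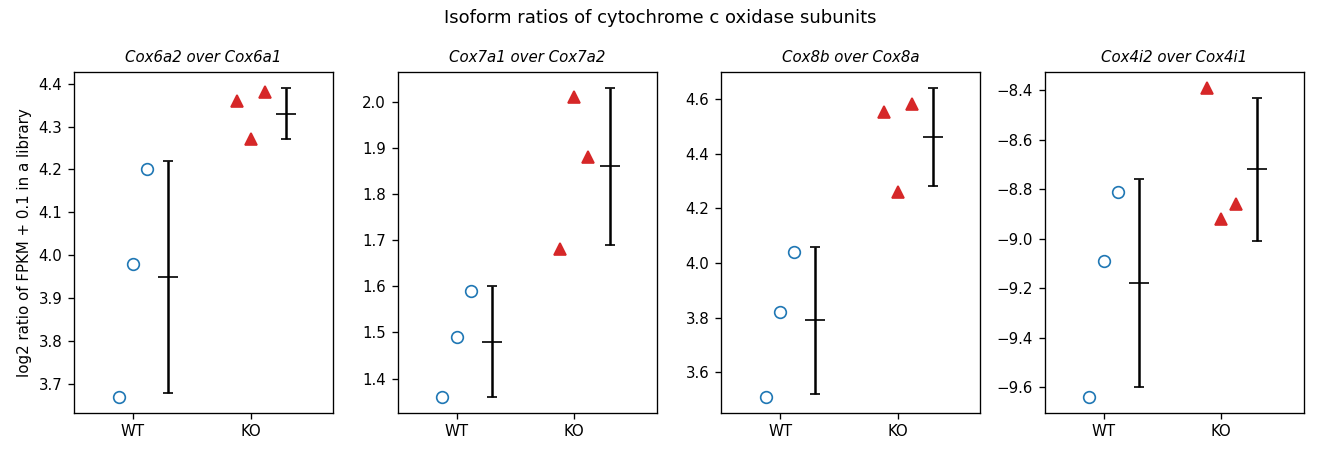
Log2 ratio of muscle (or lung) isoform to ubiquitous isoform in each library for the 4 pairs of complex IV, with points for libraries 1, 7 and 8 from left to right and a bar for the mean ± SD of each genotype (n = 3). The y axes differ between panels and do not start at 0. KO libraries lie above WT libraries in the first 3 panels and overlap in the fourth.

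The fourth pair is *Cox4i1*, the ubiquitous form of the largest nuclear subunit, and *Cox4i2*. *Cox4i1* was at 478.7, 517.2 and 551.3 FPKM (WT) and 659.3, 824.9 and 751.5 FPKM (KO), all of them higher (0.53, SE 0.12, limma adjusted p = 0.0767, and 0.20 after the GC correction). *Cox4i2* was near the floor, at 0.4999, 0.8483 and 1.125 FPKM (WT) and 1.862, 1.606 and 1.521 FPKM (KO) (0.99, SE 0.29, adjusted p = 0.104), and made up 0.104% to 0.282% of the pair. Their log2 ratio overlapped between the genotypes, and was higher in KO by 0.46 (p = 0.3 in the same exact permutation test). With a pseudocount of 1 this difference was 0.03. The testis isoform *Cox6b2* was listed at 0 in WT replicate 8. It had 0.2388 and 0.612 FPKM in the other WT libraries, beside 0.5028, 1.281 and 0.7855 FPKM in the KO, and these overlapped (adjusted p = 0.208). Its ubiquitous counterpart *Cox6b1*, at 597.6 to 711.5 FPKM, had a log2 fold change of 0.10 (adjusted p = 0.592).

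The 5 subunits of complex IV without tissue isoforms all overlapped between the genotypes. *Cox5a* and *Cox5b*, which face the mitochondrial matrix, had log2 fold changes of -0.18 and 0.07. *Cox6c*, *Cox7b* and *Cox7c*, single-span membrane subunits, had 0.14, -0.36 and -0.00. Their adjusted p ran from 0.254 to 0.998, and their median log2 fold change was -0.001, or 0.069 after the GC correction. *Cox7b* was at 785.0 FPKM in WT replicate 1 and between 437.6 and 542.2 FPKM in the other 5 libraries, and its log2 fold change ran from -0.50 to -0.15 with each library left out. The supercomplex factor *Cox7a2l* was at 59.05 to 65.16 FPKM in the WT and 61.75 to 70.73 FPKM in the KO libraries (0.10, adjusted p = 0.571).

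Promoter sequences of the *Cox8* and *Cox7a* pairs are shown because these pairs set a muscle isoform beside its ubiquitous counterpart. Each run covers 250 bases before and 50 bases after the annotated start, in the gene's own direction, from RefSeq on GRCm38.p6. The windows are chr7:140900397-140900696 (minus strand) for *Cox8b*, chr19:7217567-7217866 (minus strand) for *Cox8a*, chr7:30183921-30184220 (plus strand) for *Cox7a1* and chr9:79759804-79760103 (minus strand) for *Cox7a2*. Capitals mark matches on either strand to CAGCTG (an E-box) and TATAAA in *Cox8b*, CCGGAAG (an ETS site as bound by GABP) in *Cox8a* and GGGCGG (an Sp1 site) in *Cox7a2*.
Cox8b: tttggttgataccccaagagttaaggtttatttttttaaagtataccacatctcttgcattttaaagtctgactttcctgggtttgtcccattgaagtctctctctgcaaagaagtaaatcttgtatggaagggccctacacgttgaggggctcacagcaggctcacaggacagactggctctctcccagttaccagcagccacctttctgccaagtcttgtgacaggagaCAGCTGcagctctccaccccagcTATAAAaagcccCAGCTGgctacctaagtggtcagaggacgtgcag
Cox8a: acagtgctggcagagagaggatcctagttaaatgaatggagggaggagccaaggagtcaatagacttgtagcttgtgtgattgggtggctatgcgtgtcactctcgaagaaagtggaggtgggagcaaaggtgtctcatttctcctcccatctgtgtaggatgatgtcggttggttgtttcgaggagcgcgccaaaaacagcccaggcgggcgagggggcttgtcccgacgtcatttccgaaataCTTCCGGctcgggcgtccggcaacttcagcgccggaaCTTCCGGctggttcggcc
Cox7a1: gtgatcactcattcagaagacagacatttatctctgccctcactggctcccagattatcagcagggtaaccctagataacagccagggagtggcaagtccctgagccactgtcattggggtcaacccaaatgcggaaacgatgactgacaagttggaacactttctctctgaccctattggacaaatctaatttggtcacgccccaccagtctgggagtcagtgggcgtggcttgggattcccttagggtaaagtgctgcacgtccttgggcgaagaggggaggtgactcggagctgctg
Cox7a2: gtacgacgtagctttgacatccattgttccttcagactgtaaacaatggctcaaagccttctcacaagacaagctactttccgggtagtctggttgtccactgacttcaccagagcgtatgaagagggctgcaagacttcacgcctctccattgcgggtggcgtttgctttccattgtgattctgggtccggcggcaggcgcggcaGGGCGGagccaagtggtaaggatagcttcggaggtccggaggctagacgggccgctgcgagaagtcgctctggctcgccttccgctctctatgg

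*Cox8b* holds 2 E-boxes and 1 TATAAA, *Cox8a* 2 ETS sites and *Cox7a2* 1 Sp1 site, and *Cox7a1* holds none of the motifs searched. Windows were found for 33 of the 47 members. The ETS letters were in 9 of the 33 windows (27.3%) and in 9.12% of 27025 windows of all genes. The NRF-1 letters, GCGCA and GCGC with any base between, were in 7 (21.2%, beside 4.78%), and the YY1 letters AANATGGCG in 3 (9.09%, beside 2.51%). GGGCGG was in 33.3% beside 35.9%, CAGCTG in 6.06% beside 16.1% and TATAAA in 9.09% beside 14.2%. The MEF2 letters, CTA and TAG with any 4 bases between, were in 1 window, that of *Cox5b* (3.03%, beside 3.7%), and the ERR letters TNAAGGTCA in 1, that of *Atp5g3* (3.03%, beside 1.26%). The motifs can overlap, were searched on both strands and describe letters only.

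In ATP synthase, 3 of 15 genes had every KO library above every WT library and 0 had every KO library below, beside 18.3% and 16.2% of all tested genes. The catalytic head F1 was represented by 5 genes. *Atp5b*, the β subunit that carries the catalytic sites, had the highest level of all members, at 1632.7, 1409.8 and 1334.9 FPKM (WT) and 1311.2, 1540.2 and 1566.3 FPKM (KO). It overlapped fully, with a log2 fold change of 0.01 (SE 0.13, adjusted p = 0.956). *Atp5a1*, the α subunit, had 0.02 (adjusted p = 0.926), *Atp5c1*, the γ shaft, -0.15 (adjusted p = 0.445) and *Atp5e*, the ε subunit, 0.14 (adjusted p = 0.476).

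*Atp5d* (ENSMUSG00000003072, chromosome 10, 80138632 to 80145818, plus strand), the δ subunit of the central stalk, stood apart from the other F1 genes. It was at 68.39, 81.51 and 106.6 FPKM (WT) and 141.7, 194.9 and 164.1 FPKM (KO), all higher. Means were 85.5 ± 19.4 FPKM in WT and 167 ± 26.7 FPKM in KO muscle (SD, n = 3 each). Its log2 fold change was 0.98 (SE 0.19, limma adjusted p = 0.0700), or 0.83 to 1.15 with each library left out, and 0.38 after the GC correction for a transcript of 59.3% GC. In the annotation *Atp5d* overlaps *Cbarp*, *Cox6a2* overlaps *Itgad* and *Cox4i1* overlaps *Emc8*, each on the opposite strand, and *Cox4i1* also overlaps *Gm20388* on its own strand. Further members overlap other genes, among them *Atp5j*, which overlaps *Gabpa* on the opposite strand. The use of strand in counting is not given in the sources used here, so fragments of these genes may be shared.

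Of the 3 genes of the c ring, *Atp5g1* was at 370.3, 377.1 and 438.5 FPKM (WT) and 503.3, 671.1 and 598.8 FPKM (KO), without overlap. Its log2 fold change was 0.57 (SE 0.14, limma adjusted p = 0.0794), and at 47.9% GC the correction left it at 0.65. *Atp5g2* was at 223.4, 231.8 and 256.4 FPKM (WT) and 289.3, 296.8 and 312.7 FPKM (KO), also without overlap (0.34, SE 0.10, adjusted p = 0.107), but became -0.13 after the correction. *Atp5g3* was at 807.4, 654.0 and 544.9 FPKM (WT) and 540.7, 681.1 and 630.2 FPKM (KO), which overlapped (-0.10, SE 0.17, adjusted p = 0.721). As shares of their sum, *Atp5g1* took 26.4%, 29.9% and 35.4% in WT replicates 1, 7 and 8 and 37.8%, 40.7% and 38.8% in KO replicates 1, 7 and 8. *Atp5g3* took 57.6%, 51.8% and 44.0% in the WT and 40.6%, 41.3% and 40.9% in the KO libraries. The 2 genes were thus nearly level in KO muscle, and *Atp5g3* led in the WT, most in replicate 1. The sum itself was 1240 to 1401 FPKM in WT and 1333 to 1649 FPKM in KO libraries.

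The 4 peripheral stalk genes, whose products hold the head still against the turning ring, all had negative log2 fold changes, and all overlapped. They were -0.32 for *Atp5j* (F6), -0.23 for *Atp5f1* (b), -0.12 for *Atp5h* (d) and -0.04 for *Atp5o* (OSCP), with adjusted p from 0.258 to 0.841. The median of -0.175 was -0.091 after the GC correction, and *Atp5f1* became 0.07. WT replicate 1 held the highest level of each of them, for example 1067.5 FPKM of *Atp5j* beside 638.7 to 783.4 FPKM in the other libraries. The membrane subunits *Atp5j2* (f), *Atp5k* (e) and *Atp5l* (g), of which e and g join the enzyme into dimers, had 0.11, 0.24 and 0.07, with overlap in each. *Atp5l*, the lowest in GC content of the 45 tested members at 41.0%, was at 0.41 after the correction.

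Among the 5 genes kept apart, *Atp5sl* was at 17.54, 16.14 and 16.25 FPKM (WT) and 21.46, 22.21 and 21.75 FPKM (KO). Replicates were tight and the groups apart, with a log2 fold change of 0.39 (SE 0.10, limma adjusted p = 0.0809) and 0.18 after the correction. *Atp5s* was at 11.94, 10.81 and 10.85 FPKM (WT) and 9.239, 6.263 and 8.725 FPKM (KO), all lower (-0.49, SE 0.16, adjusted p = 0.129, and -0.26 corrected). *Atp5l2* was listed at 0 in KO replicate 1 and had 0.3138 and 0.3976 FPKM in the other KO libraries, beside 0.2898, 1.529 and 0.5694 FPKM in the WT. *Cox4nb*, at 1.857 to 2.317 FPKM, had a log2 fold change of 0.01 (adjusted p = 0.969). Of all members, 14 have a near-identical copy that does not overlap them in the annotation, at 95% identity over 200 bases or more, among them *Atp5g1*, *Atp5l*, *Cycs* and *Uqcrb*, so their FPKM may hold fragments of a copy or lack some of their own.

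The 6 mitochondrially encoded partners, *mt-Cytb* of complex III, *mt-Co1*, *mt-Co2* and *mt-Co3* of complex IV and *mt-Atp6* and *mt-Atp8* of ATP synthase, were listed at 0 in all 6 libraries, so nuclear and mitochondrial subunits could not be compared. A list of 42 assembly factors and further subunits had 39 genes tested. At an adjusted p under 0.05 in limma, 0 were higher and 0 lower, and at an unadjusted p under 0.05, 4 were higher and 9 lower, beside 15.3% and 10.9% of all tested genes. With array weights 6 were called higher and 9 lower, where 15.1% and 10.4% of all tested genes were. The median log2 fold change was -0.052. *Ttc19*, a factor that keeps complex III clear of Rieske protein fragments, was at 24.25, 24.83 and 23.73 FPKM (WT) and 18.50, 15.96 and 19.38 FPKM (KO), without overlap (-0.44, SE 0.11, limma adjusted p = 0.0841, and -0.32 after the GC correction). *Cmc1*, an early assembly factor of complex IV, had a log2 fold change of -0.54 (SE 0.15, adjusted p = 0.0954) and *Tmem70*, which helps build the c ring, -0.41 (SE 0.11, adjusted p = 0.0962). *Cox16*, which acts in the assembly of COX2, had -0.41 (adjusted p = 0.101) and *Cox10*, the heme farnesyltransferase, 0.38 (adjusted p = 0.123). The corrected values of these 4 were -0.34, -0.32, -0.08 and 0.09.

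Other nuclear genes of the same machinery were counted in the same way. Of 35 tested subunits of complex I, 1 was called higher, *Ndufb7*, a supernumerary subunit, at 39.02, 42.84 and 60.67 FPKM (WT) and 114.7, 155.4 and 122.2 FPKM (KO) (1.47, SE 0.19, limma adjusted p = 0.0431, and 1.19 with an adjusted p of 0.0804 after the GC correction). At an unadjusted p under 0.05, 9 of the 35 were higher and 2 lower, with a median log2 fold change of 0.031. Of 76 mitochondrial ribosomal proteins 0 were called, and 13 were higher and 10 lower at that p, with a median of -0.022. The shares of all tested genes at that p were 15.3% and 10.9%. Among the 4 subunits of complex II, *Sdhb* had every KO library above every WT library (0.44, SE 0.17, adjusted p = 0.160, and 0.17 after the GC correction). No test of the difference between these groups was made.

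Of 12 transcriptional regulators of respiratory genes, *Esrra*, which encodes the nuclear receptor ERRα, passed the test. It was at 6.255, 7.782 and 9.675 FPKM (WT) and 17.74, 21.77 and 18.47 FPKM (KO). Every KO library was well above every WT library, with a log2 fold change of 1.30 (SE 0.17, limma adjusted p = 0.0435) that was 0.74 (adjusted p = 0.16) after the GC correction. Its coactivator *Ppargc1a* was at 5.723 to 6.635 FPKM in the WT and 5.569 to 6.460 FPKM in the KO libraries (-0.03, adjusted p = 0.898). *Ppargc1b* had 0.75 (SE 0.27, adjusted p = 0.145), and 0.23 after the correction. *Nrf1* and *Gabpa*, whose products bind many promoters of respiratory genes, had 0.16 (adjusted p = 0.667) and 0.09 (adjusted p = 0.700), and 0.12 and 0.40 after the correction. *Gabpa* overlaps the far more abundant *Atp5j* on the opposite strand, so its FPKM may hold fragments of that gene. At an unadjusted p under 0.05, 3 of the 12 were higher and 4 lower, beside 15.3% and 10.9% of all tested genes. The 3 were *Esrra*, *Ppargc1b* and *Polrmt* (0.48, and -0.15 corrected). The 4 were *Gabpb1* (-0.48), *Tfb1m* (-0.44), *Yy1* (-0.41) and *Tfb2m* (-0.36), each with every KO library below every WT library. Their corrected values were -0.24, -0.20, -0.40 and -0.07. The median of the 12 was 0.032, or -0.005 after the correction.

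Markers of other cell types also differed between libraries. Of the 7 adipocyte markers, 5 were higher in KO at an unadjusted p under 0.05, beside 15.3% of all tested genes, with 0 called. The 7 summed to 234 to 444 FPKM in WT and to 304 to 623 FPKM in KO libraries. KO replicate 7 was highest for *Adipoq*, at 40.43 FPKM. Brown adipocytes are rich in these complexes, and their 5 markers summed to 6.83 to 7.45 FPKM in WT and 6.99 to 13.6 FPKM in KO libraries. Most of each WT sum was *Ppargc1a*, the coactivator above, at 5.723 to 6.635 FPKM in WT and 5.569 to 6.460 FPKM in KO libraries. *Ucp1* was at 4.25 FPKM in KO replicate 7 and at 0.3141 FPKM or less elsewhere. *Cidea* was higher and *Dio2*, under the filter, lower in KO without overlap, while *Ucp1*, *Elovl3* and *Ppargc1a* overlapped. Among the 8 slow fiber markers tested, 0 were called and all overlapped, with sums of 39.4 to 817 FPKM in WT and 304 to 1690 FPKM in KO libraries. The 5 blood cell markers summed to 242 to 314 FPKM in WT and 266 to 547 FPKM in KO libraries. Of these, *Hba-a1* (1.31) and *Hba-a2* (1.02) were higher in KO without overlap, beside 18.3% of all tested genes, and the other 3 overlapped. The median log2 fold change of the 5 was 0.227 (0.11 after the GC correction). Of the 6 smooth muscle and pericyte markers, 5 had every KO library above every WT library and 1, *Rgs5*, every KO library below. Over all tested genes these shares were 18.3% and 16.2%. The median log2 fold change of the 6 markers was 0.62 (0.296 after the GC correction). At an unadjusted p under 0.05, 3 were higher, beside 15.3% of all tested genes, with 0 called. Among the 6 endothelial markers *Tie1* (0.79) and *Vwf* (0.59) were higher without overlap, and the other 4 overlapped, among them *Kdr* at -0.44. The median log2 fold change of the 6 was 0.18 (0.083 after the GC correction). At an unadjusted p under 0.05, 2 were higher and 1 lower, beside 15.3% and 10.9% of all tested genes, with 0 called. The markers of fibroblasts, macrophages, Schwann cells and heart overlapped in their sums, and so did each marker tested. All 6 macrophage markers had positive log2 fold changes, with a median of 0.369 and 0 at an unadjusted p under 0.05. KO replicate 7, the library with the most adipocyte transcript, also had the highest *Cox6a2*, *Uqcr11* and *Atp5d* of the KO libraries. Among the WT libraries, replicate 1 had the highest *Adipoq*, at 11.37 FPKM, but the lowest *Uqcr11* and *Atp5d*, and its *Cox6a2* lay between those of the others. The part of these cells in the differences was not tested. Without KO replicate 7, the log2 fold changes were 0.78 for *Cox8b*, 0.68 for *Cox6a2*, 1.07 for *Uqcr11* and 0.86 for *Atp5d*, and without WT replicate 8 they were 0.93, 0.98, 1.41 and 1.15.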

How the data were processed

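RNA from 3 WT and 3 KO GAS muscles was prepared with a stranded mRNA kit. Per the labels and the study's methods, the authors mapped reads to GRCm38 with TopHat and computed the deposited FPKM with Cufflinks. The versions, the annotation and the use of strand in counting are not given in the sources used here. Counts were not used, and depth was estimated from low FPKM values of genes with 1 transcript, which were whole fragments within 0.15 for 92.2% to 96.6% of values. Genes near 0.1 FPKM rest on few fragments. Among 14983 genes above 0 everywhere, 2 libraries had at most 1 value in common, so each counted as a replicate.

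The log2(FPKM + 0.1) values of genes whose mean reached 0.5 FPKM were fitted by limma (3.58.1, R 4.3.3), allowing the variance to follow expression, with Benjamini-Hochberg adjustment and a threshold of 0.05. Ratios were tested by exact permutation. GC content came from GENCODE vM21, which holds 32935 of the 37979 identifiers, and the correction subtracted a loess curve of span 0.3 on GC content from each library. Copies were searched with BLAST 2.17.0. Tests were checked on simulated data. Python 3.11.15 and matplotlib 3.10.9 made the plots.

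The members, gene lists and motifs were chosen with earlier results of these data known, and the motifs and the GC values of single libraries after the members' values had been seen. Genes named were *Kcnab2*, the members without overlap with the 12 smallest p, the isoform pairs, the c subunits, the highest member of each complex, members listed at 0 and the 5 assembly factors with the smallest p. Other members are given with their roles, and *Uqcrh*, *Atp5s*, *Esrra*, *Sdhb*, *Ndufb7*, *Rgs5*, *Tie1*, *Vwf* and *Kdr* were picked for their values. So were the regulators *Polrmt*, *Gabpb1*, *Tfb1m*, *Tfb2m* and *Yy1*, and the markers *Acta1*, *Ckm*, *Des*, *Myh2*, *Mylpf*, *Pvalb*, *Hba-a1* and *Hba-a2*. Alternatives covered the pseudocount, the filter, scaling, variance model, array weights, replicate block, GC content, length and each library left out.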

Additional observations from a re-analysis of the deposited data

How the results depend on the processing

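No member was called at an adjusted p under 0.05 under any setting except array weights, which gave library weights from 0.35 (WT replicate 1) to 6.12 (WT replicate 7). With these, 14 members were higher and 1 lower, 6 assembly factors were higher and 9 lower, and *Cox7a2* was at 0.00, while over all genes 1863 were higher and 1284 lower in place of 31 and 9. With the GC correction, 7 members were higher and 1 lower at an unadjusted p under 0.05, beside 5.37% and 5.43% of all genes corrected. Without overlap, 5 members were lower, and the share of all corrected genes without overlap is not given here. The median of complex III was 0.018, the ratio difference was 0.86 for *Cox6a2* over *Cox6a1* and -0.03 for *Cox7a1* over *Cox7a2*. The log2 fold change turned to -0.18 for *Cyc1*, -0.13 for *Atp5g2*, -0.17 for *Cox6a1*, -0.01 for *Cox7a1*, -0.42 for *Cox8a*, 0.02 for *Cox7a2* and 0.02 for *Atp5g3*.

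Replicate numbers were not used to pair the samples in the main fit. Same-numbered libraries correlated at -0.03, -0.08 and 0.03 in their deviations from the group means. These values show no shared deviation, but cannot settle whether the mice were matched by number. With the replicate block 0 members were called at an adjusted p under 0.05, and over all genes 6 were called higher and 7 lower. At an unadjusted p under 0.05, 13 members were higher and 2 lower. The GC correction with the replicate block gave 6 members higher and 1 lower at that unadjusted p, and otherwise the values above.

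At an unadjusted p under 0.05, 1 member was lower with no filter, with no variance trend and without genes listed at 0, 4 with quantile normalization and 9 with the length correction. Without overlap, 6 were lower with median-ratio scaling, 7 with quantile normalization and 12 with the length correction. The median log2 fold change of all genes also moved, to -0.013, -0.044 and -0.064 in these settings, beside 0.01 in the main fit. The length correction moved the median of the members to -0.049 and *Cox8a* to -0.03. The shares of all tested genes that were lower under these settings are not given here, so the member counts cannot be set against them. *Atp5b* was at -0.01 with median-ratio scaling, -0.17 with quantile normalization and -0.14 with the length correction. With a pseudocount of 1, the difference in the ratio of *Cox4i2* to *Cox4i1* was 0.03. Leaving out each library in turn gave 0 to 5 members lower at an unadjusted p under 0.05, the most without WT replicate 8. Without overlap, 13 to 20 were higher, the most without KO replicate 1, and 3 to 8 lower, the most without KO replicate 8. Leaving out a library can only keep or add genes without overlap, so these counts could not fall below 13 and 3. The shares over all genes are not given here. With each library left out, the log2 fold change ran from -0.12 to 0.01 for *Cox7a2* and from -0.24 to 0.04 for *Atp5g3*, both positive only without WT replicate 1, and from -0.05 to 0.10 for *Atp5b*. The cause of these differences was not tested. Depth limits the low genes *Kcnab2*, *Cox4i2*, *Cox6b2* and *Atp5l2*.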
